A study of Mus musculus with 2 samples.

Results

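The 10 transcription factor genes followed here belong to families known from the immediate early response. Their RNA was measured in mouse T helper 9 (TH9) cultures of 2 genotypes. They are the FOS genes Fos, Fosb, Fosl1 and Fosl2, the JUN genes Jun, Junb and Jund, and the EGR genes Egr1, Egr2 and Egr3. They were taken by name, as every gene probe whose transcript accession belongs to one of the 10 symbols, which gave 11 probes of the 39411 on the arrays and 10 of the 20651 genes with a named probe. Naive CD4 T cells from spleen and lymph node, gated as CD4+TCR+CD62Lhi CD44lo, were the starting cells of both groups. Antibodies to CD3 and CD28 (2 µg/ml of each) and human IL-2 (100 U/ml) activated them. TGFβ1 at 2 ng/ml together with IL-4 at 10 ng/ml drove the TH9 fate, for 5 days per the sample descriptions or up to 6 per the protocol. One group was wild-type. The other came from SIRT1flox/flox-CD4-Cre mice, in which floxed Sirt1 alleles meet a Cre recombinase driven by the Cd4 promoter, which is active in the T cell lineage from the thymus on. The labels give no age, no number of animals and no control that carries Cre alone. Each group had 1 array, so no difference has a replicate check, no test between genotypes was possible and no p-value was computed.

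AP-1 is a dimer of basic leucine zipper (bZIP) proteins. FOS proteins work with a partner, usually a JUN protein, while JUN proteins can also pair with each other or with BATF, which TH9 cells need together with IRF4. EGR proteins are zinc finger factors that bind GC-rich sites. Signalling from the T cell receptor induces members of both families within minutes, in part through MAP kinases that act on SRF and its ternary complex partners. Many of these mRNAs are short-lived. In T cells AP-1 acts with NFAT on cytokine genes, and EGR2 and EGR3 are known to restrain activation. SIRT1, an NAD-dependent deacetylase, is known to bind AP-1 proteins and lower their activity, so the question these arrays can address is whether the mRNAs of the factors themselves differ between the samples.

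Some facts of the arrays bear on every value. Well above background were 57.1% of spots in wild-type and 65.3% on the knockout-labelled array, and the lowest probe signals so flagged were 24.6 and 8.96. The Sirt1 probe gave 3240 and 2920, and since its place relative to the floxed exons is not stated in the sources used here, it does not check the label. Of 6 TH9 markers, 4 were well above background on both arrays and Spi1 on the knockout-labelled array only. Signal of the TH9 cytokine Il9 did not stand well above background on the arrays (5.48 and 7.36). Of the 4 TH9 markers measured on both arrays, 3 were higher on the knockout-labelled array and 1 lower. Pparg was 2.81-fold and Il17rb 2.35-fold higher, though a second Il17rb probe, not measured on both arrays, gave -1.24 on the log2 scale. Batf was nearly equal, with a difference of 0.023. Irf4 was the lower one, at 506 and 386, a difference of -0.33. T cell markers were well above background in 10 of 10 cases on both arrays, but so were 8 of 8 B cell, 7 of 7 macrophage and monocyte, 6 of 6 dendritic cell and 8 of 8 CD8 T and NK cell markers with a probe, cells that the CD4+TCR+ gate on the starting cells was set to leave out. Of all 20651 genes with a probe, 12958 were well above background on both arrays, so such a signal was common. The T cell markers divided into 5 higher and 5 lower on the knockout-labelled array, with summed signals of 62732 in wild-type and 62974 there. Cd3e was 2.18-fold lower and Lat 1.89-fold higher. B cell markers were lower in 8 of 8 cases, 2 of them at least 2-fold (summed signals 97756 and 77883), with Blk 2.67-fold lower. By their brightest probes, CD8 T and NK cell markers were higher in 7 of 8 cases, 1 of them at least 2-fold, which was Klra1 of NK cells at 2.94-fold. In RNA of a whole culture, fewer cells of a type and less RNA per cell cannot be told apart.

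Of the 10 genes, 7 were measured on both arrays (Fos, Fosb, Fosl2, Jun, Jund, Egr1 and Egr2), and 3 were not well above background on either (Fosl1, Junb and Egr3). Over all genes with a probe, 12958 of 20651 were measured on both. Among the 7 members, the FOS genes moved apart from each other, both JUN genes were slightly lower on the knockout-labelled array, and both EGR genes were nearly equal on the arrays. Fosl2 was the 1 gene at least 2-fold higher and 0 genes were at least 2-fold lower. Among all 12958 genes that both arrays measured well above background, 3.95% were higher by at least 2-fold, 3.63% lower by as much and 7.59% either, so 1 of 7 is not a result about the members as a set. The median difference of the 7 was -0.09 on the log2 scale (knockout minus wild-type, after dividing each array by its 75th percentile signal), against 0.0031 over all 12958 genes. It became 0.097 when the arrays were centred on their medians, a scaling that moved the median of all genes to 0.19. With 3 genes higher and 4 lower, the members divided about as all genes did, of which 50.4% were higher.

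**Figure D1:**
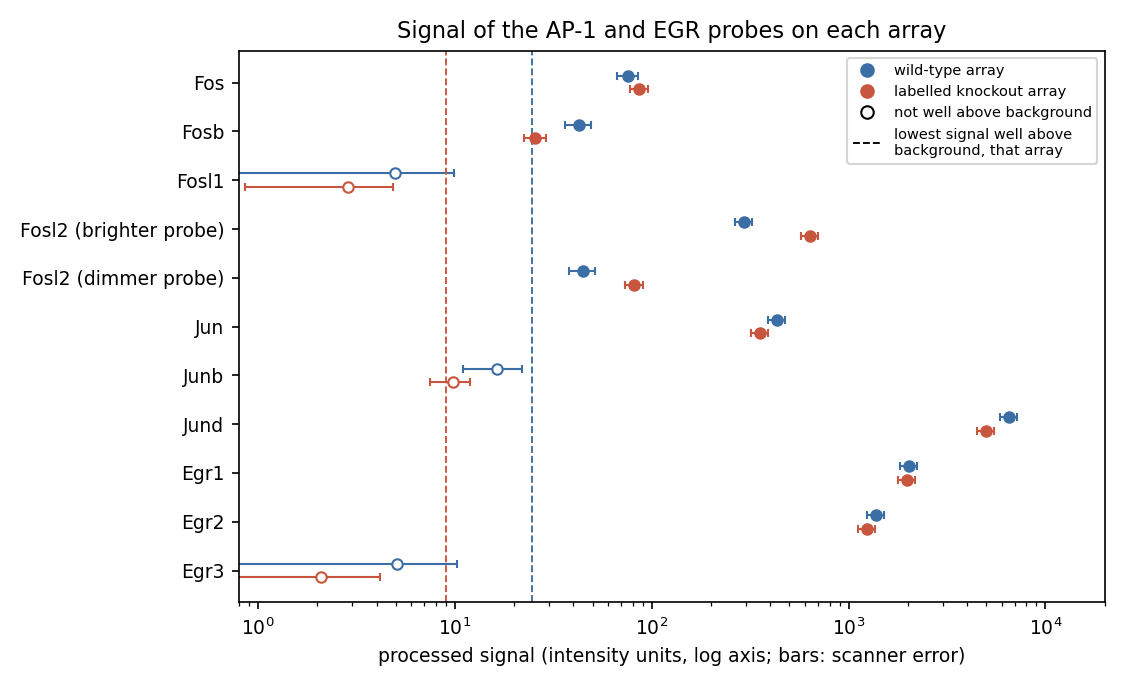
Processed signal (intensity units, log axis) of the 11 probes on each array, in the colours given for wild-type and knockout, with the scanner's error as bars, which run off the left edge where they reach 0. Open points were not well above background, and dashed lines mark the lowest signal well above background on each array (24.6 and 8.96); the Fosl2 probes are the ones whose points lie farthest apart among the filled ones.

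Fosl2, which encodes the FOS protein FRA-2, was the member that differed most. Its brighter probe, A_55_P1995195, read 294 ± 29.8 (scanner error) in wild-type and 638 ± 63.8 in the knockout-labelled sample. That is a difference of 1.18 ± 0.21 on the log2 scale, or 2.27-fold higher. The raw spots showed the same order before any scaling, with median pixel intensities of 350 and 696 over local backgrounds of 21 and 20.5. The second probe, A_51_P507242, was much dimmer and read 44.5 ± 6.67 and 81.5 ± 8.4, a difference of 0.94 ± 0.26 or 1.92-fold. Both probes were therefore brighter on the same array, and the ranges of 1 scanner error around their differences overlapped. Of the 12958 genes, 318 (2.45%) had a larger positive difference than the brighter probe and 594 (4.58%) a larger one than the dimmer probe. In the middle of 3 equal classes of signal, to which Fosl2 belongs, 3.87% of genes were at least 2-fold higher. The scanner error covers only the measurement of a spot, about 10% of a bright signal, and not the spread between cultures or mice.

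The size of the Fosl2 difference depended on the background correction. The brighter probe stayed higher on the knockout-labelled array under every alternative run, from 0.89 to 1.37, but with normexp background correction it was 0.95 after quantile normalization and 0.89 after scaling to the 75th percentile, both short of 2-fold. For the dimmer probe normexp gave 0.44 after quantile normalization and -0.32 after scaling to the 75th percentile, where it turned. By their brightest probes, macrophage and monocyte markers were higher on the same array in 7 of 7 cases, 3 of them at least 2-fold. Their summed signal was 8486 in wild-type and 15668 in the knockout-labelled sample, of which Csf1r alone gave 6580 and 11700. The 2 other Csf1r probes, well above background on both arrays, went the other way at -0.135 and -0.566 on the log2 scale. Mrc1 was 2.62-fold and Adgre1 2.34-fold higher. Of the mast cell, basophil and neutrophil markers 5 of 7 were higher, among them Cpa3 (3.30-fold) and Fcer1a (2.80-fold). The 2 lower ones were Mcpt8, 1.74-fold lower, and Elane, 1.28-fold lower. Summed signals of this list were 125239 and 128109, while Ms4a2 gave no signal well above background on either array. Stroma and endothelium markers were higher in 4 of 6 cases, with summed signals of 3119 and 4666, and Col1a2 (2.42-fold) and Pdgfrb (2.32-fold) were the 2 past 2-fold. The 2 lower ones were the endothelial genes Pecam1 (1.36-fold lower) and Cdh5 (1.03-fold lower). Pdpn counted as higher, but a second probe, not measured on both arrays, gave -1.2 on the log2 scale. The part of all these cells in the Fosl2 difference was not tested.

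The start-proximal sequences of 4 members are shown because they hold the member that differed most (Fosl2), the member with the lowest difference (Fosb), the gene with repeated spots (Fos) and the JUN gene whose promoter is the textbook case of control by AP-1 itself (Jun). Each is the 100 bases just before the annotated start in RefSeq's GRCm38.p6 annotation, 5′ to 3′ on the strand of the gene. Capitals mark TGACG, TGACNTCA, GCGNGGGCG and TATAAA, searched on both strands.
Fosl2, chr5:32136372-32136471, plus strand: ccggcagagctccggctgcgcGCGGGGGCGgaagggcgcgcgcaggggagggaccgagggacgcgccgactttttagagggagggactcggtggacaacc
Fosb, chr7:19310046-19310145, minus strand: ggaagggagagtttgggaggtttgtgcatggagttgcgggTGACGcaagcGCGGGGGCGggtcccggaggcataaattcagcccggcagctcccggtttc
Fos, chr12:85473790-85473889, plus strand: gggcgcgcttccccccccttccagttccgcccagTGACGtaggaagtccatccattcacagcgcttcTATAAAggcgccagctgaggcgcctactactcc
Jun, chr4:95052223-95052322, minus strand: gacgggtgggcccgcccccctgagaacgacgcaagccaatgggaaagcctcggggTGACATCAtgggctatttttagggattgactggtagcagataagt

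Fosl2 and Fosb, the members at the opposite ends of the differences, both carried GCGGGGGCG, a match to the EGR site GCGNGGGCG. It began 79 bases before the start in Fosl2 and 50 bases before it in Fosb, and in both it overlapped a GC box (GGGCGG). Jun and Fos also held GGGCGG, on the opposite strand, 89 and 74 bases before the start. Of 32851 promoter windows of the same length, 3.02% held GCGNGGGCG and 24.7% GGGCGG. Fos had TGACG, the core of the cyclic AMP response element, 66 bases before the start, and TATAAA at 33 bases. Fosb had TGACG at 60 bases. TGACG occurred in 10.5% of windows and TATAAA in 5.56%. Jun had TGACATCA, which fits TGACNTCA, at 45 bases, and 4.63% of windows held that motif. The windows of these 4 genes had no match to TGANTCA, the classical AP-1 site (2.73% of windows), or to the CArG box bound by SRF (0.615%), which says nothing of sites farther out. Windows of Egr2 did hold CArG boxes: 3 of its 5 annotated starts had one, CCTTTTTTGG at 72 bases in one window and CCATATATGG at 72 and 73 bases in windows whose starts lie next to each other. These matches are letters in a sequence, and the arrays do not measure binding.

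Fos, the founding member of its family, was dim and close between the arrays. Its probe was spotted 10 times on each array, which no other member's was. The 10 spots read from 67.0 to 91.2 with a median of 74.55 on the wild-type array, and from 79.2 to 90.4 with a median of 88.15 on the knockout-labelled array. The spots of the arrays overlapped, since 7 of the 10 wild-type spots lay below all 10 of the other array and 0 knockout spots lay above all wild-type ones. Position by position, the signal was higher on the knockout-labelled array at 8 of 10 spots and lower at 2. After scaling, the difference ranged over the spots from 0.017 to 0.43 with a mean of 0.26 and an SD of 0.16. The spots of 1 array share 1 labelled RNA, so this spread is that of the spotting and scan alone, and the scanner error of the gene's difference was 0.23. The log2 SD over Fos spots was 0.13 in wild-type and 0.066 on the knockout-labelled array, wider than the medians of 0.037 and 0.031 over 241 repeated probes well above background. Fos was higher on the knockout-labelled array under the scalings run, 0.16 to 0.45, except with normexp scaled to the 75th percentile, which gave -0.50.

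**Figure D2:**
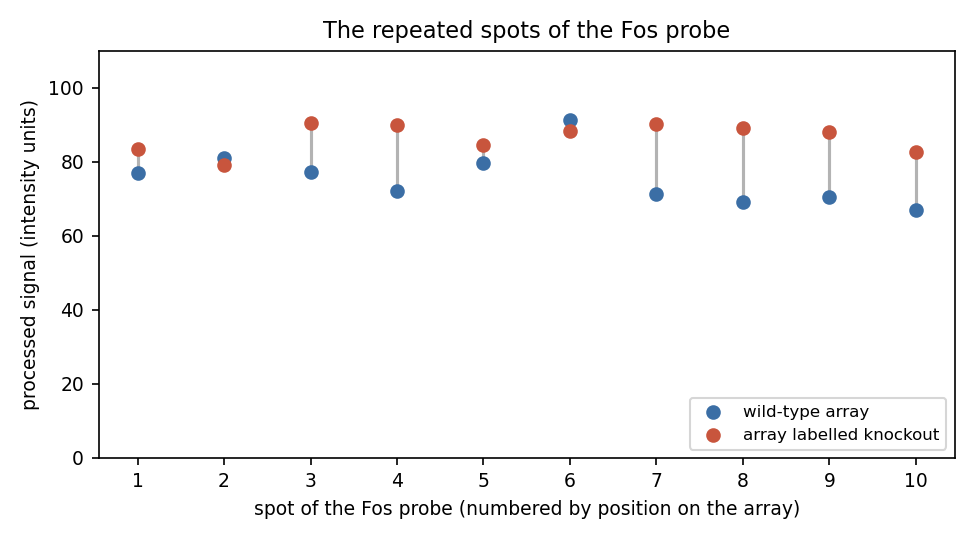
Processed signal (intensity units, axis from 0) of the 10 spots of the Fos probe on each array, joined by position. The array labelled knockout was brighter at 8 of 10 positions and the ranges, 67.0 to 91.2 and 79.2 to 90.4, overlapped.

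Fosb, a FOS protein that is best known from neurons and is also induced in lymphocytes, had the lowest difference among the members. Its probe read 42.6 ± 6.58 in wild-type and 25.6 ± 3.28 in the knockout-labelled sample. The difference was -0.67 ± 0.29, or 1.59-fold lower. The wild-type signal was only 1.73 times the lowest signal well above background there, so Fosb stood near the edge of what the array measured. Fosb kept a lower signal on the knockout-labelled array under each scaling and background correction run, but the size ran from -0.16 with normexp and quantile normalization to -1.15 with normexp scaled to the 75th percentile. In the dimmest of the 3 signal classes, to which Fosb and Fos belong, 7.69% of genes were at least 2-fold lower and 6.2% higher by as much. Fosl1, which encodes FRA-1, read 4.94 and 2.85 and gave no signal well above background on either array, so no fold is given. From Fosb to Fosl2 the 3 measured FOS genes spanned 1.85 on the log2 scale. The 2 measured JUN genes spanned 0.11 and the 2 measured EGR genes 0.13. These spans rest on unequal numbers of genes and on unlike signal classes, so they do not rank the families.

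The JUN genes, which supply the usual partners of FOS proteins, were slightly lower on the knockout-labelled array. Jun read 433 ± 43.7 in wild-type and 353 ± 35.4 in the knockout-labelled sample, a difference of -0.23 ± 0.21. Jund, the JUN gene that resting cells also express, read 6550 ± 655 and 4960 ± 496, a difference of -0.34 ± 0.20 or 1.26-fold lower. Both differences exceeded the scanner error, as did those of 60.6% of all genes, and both were far from 2-fold. They kept their sign under every alternative run, at -0.23 to -0.028 for Jun and -0.37 to -0.021 for Jund. Relative to the median of all genes, Jund turned to 0.035 with normexp scaled to the 75th percentile. Junb, a JUN gene that T helper cells are known to use with BATF, read 16.4 and 9.72 by its 1 probe and gave no signal well above background on either array. This probe gives no level for Junb in these cultures, only a signal that the arrays did not separate from background.

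The EGR genes had the differences nearest to 0 of the 3 families in the signal scaled to the 75th percentile. Egr1 read 2020 ± 202 in wild-type and 1980 ± 198 in the knockout-labelled sample, a difference of 0.036 ± 0.20. Egr2, one of the EGR factors of T cell restraint, read 1380 ± 138 and 1240 ± 124, a difference of -0.09 ± 0.20. Both differences were smaller than their scanner errors, which held for 2 of the 7 members in all. Neither has a settled direction, since the alternatives ran from -0.033 to 0.22 for Egr1 and from -0.12 to 0.097 for Egr2. With 1 array each, an equal signal does not show equal expression in the genotypes, and the errors of 0.20 leave room for differences of that size. Egr3 read 5.10 and 2.08 and gave no signal well above background on either array.

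**Figure D3:**
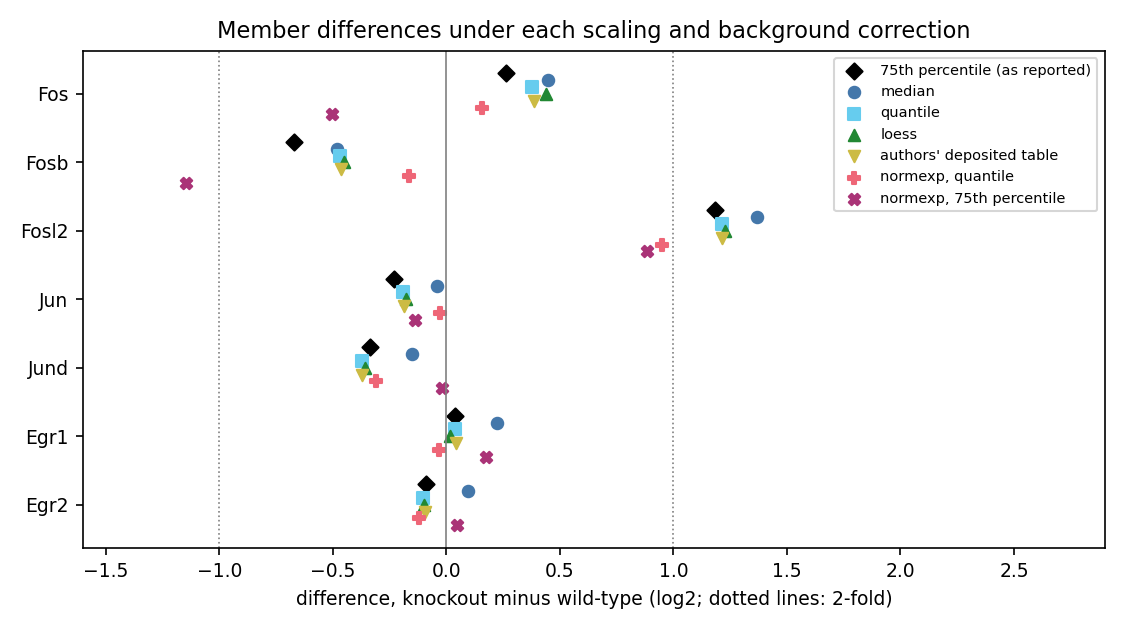
Difference of the 7 measured members (log2, knockout minus wild-type) under each scaling and background correction, with dotted lines at 2-fold. Fosl2 lies between 0.89 and 1.37 and Fosb between -1.15 and -0.16, while Fos, Egr1 and Egr2 fall on both sides of 0.

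The genes around these factors were read from 9 lists of 91 genes, of which 78 were well above background on both arrays. Of these, 43 were higher and 35 lower on the knockout-labelled array, 2 were at least 2-fold higher and 1 at least 2-fold lower. That is 3.85% past 2-fold, against 7.59% of all genes. The median was 0.047.

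Among the AP-1 partners and other small bZIP factors, 8 of 10 measured genes were higher and 2 lower. The median was 0.38 and ran from 0.33 to 0.56 over the scalings run on the lists. Batf2, an interferon-induced partner of JUN best known from myeloid cells, was the 1 gene past 2-fold. It read 35.0 and 84.8, a difference of 1.34 ± 0.29 or 2.53-fold higher. The macrophage markers given above were higher on the same array by their brightest probes. Their part in this difference was not tested. Batf, the partner that TH9 cells use, read 1820 and 1768, a difference of 0.023. Batf3 read 256 and 383, a difference of 0.65. The count of 8 rests on 1 probe per gene, and other probes went the other way for some. Mafg, a small MAF factor, counted as higher at 0.074, within its scanner error, while its other probes gave -0.47 and -0.58. Crem, a cyclic AMP responsive factor, had 0.51, and its other probes gave 0.47 and -0.54. Atf2 counted as lower at -0.17, and its other probes were lower still at -0.83, -1.05 and -0.86. Atf3, a stress-induced bZIP factor, was measured on the knockout-labelled array alone (24.4 and 41.0). It was 1.74-fold higher there than the dimmest signal flagged well above background on the other array.

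The relatives and regulators of EGR showed little difference. Of the 3 measured genes 0 passed 2-fold and the median was 0.18. Nab1, a corepressor that binds EGR proteins, read 1660 and 2070, a difference of 0.38, and Klf10 had one of 0.18. Of the genes that EGR2 and EGR3 are linked to in restrained T cells, 5 were higher and 6 lower by their brightest probes. The median of -0.18 turned to 0.0051 at the upper end of the scalings. Ikzf2 counted as higher at 0.045, within its scanner error, while its other probe, well above background on both arrays, gave -0.81. Cblb was lower by both of its probes, at -0.27 and -0.65. Cdkn1a, which encodes the cell cycle inhibitor p21, was 2.23-fold higher by a dim probe (30.2 and 64.4).

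Other immediate early genes followed no common direction. Of 16 measured, 10 were higher and 6 lower, 0 passed 2-fold and the median was 0.11. These counts rest on 1 probe per gene. Ier5 counted as higher at 0.37, while its other probe, well above background on both arrays, gave -0.78. Rgs2 was higher by both of its probes, at 0.30 and 0.27. Ier3, an early gene of survival signalling, read 66.3 and 105, a difference of 0.73 ± 0.23. Rgs1, which dampens chemokine receptor signals, read 1330 and 1930, a difference of 0.60. Nr4a1, the orphan nuclear receptor often used as a reporter of T cell receptor signals, read 2300 and 2570, a difference of 0.23. Ier2 was well above background on the wild-type array only (29.3 and 9.26). By these readings it was 3.02-fold lower on the knockout-labelled array, where its signal was not separated from background. The wild-type signal of Ier2 lay close to the lowest one that array measured.

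Of the 6 genes of SRF, its ternary complex factors and its coactivators, 4 differed by more than the scanner error and 0 by 2-fold. On the knockout-labelled array 2 were higher and 4 lower. The one that differed most was Elk4, a ternary complex factor that recruits MAP kinase signals to SRF. Elk4 read 464 and 239 by its brightest probe, a difference of -0.89 ± 0.21, and its other probes gave -1.34 and -1.23. All 3 Elk4 probes were thus lower on the knockout-labelled array, and the probe that represents the gene was the one short of 2-fold. Srf itself read 1950 and 1820, a difference of -0.034. Mkl1, a coactivator of SRF now called Mrtfa, had a difference of 0.47 by its brightest probe and -0.17 by another. Mkl2, a related coactivator now called Mrtfb, read 1450 and 1840, a difference of 0.41, and its dimmer probes, which were not measured on both arrays, differed in sign. Elk3, another ternary complex factor, read 2300 and 1670, a difference of -0.40, with -0.37 and 0.42 by its other probes.

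The MAP kinase cascades had 4 of 10 measured genes higher and 6 lower, with a median of -0.14 that ran from -0.14 to 0.049 over the scalings. Mapk3, which encodes the kinase ERK1, read 186 and 120, a difference of -0.57 ± 0.21, and -0.93 by its other probe. Mapk14, which encodes p38α, read 9850 and 12900, a difference of 0.45, while a dimmer probe that was not measured on both arrays gave -0.63. Among the phosphatases and Sprouty inhibitors that end MAP kinase signals, Dusp4 was the 1 gene past 2-fold. It was dim, at 56.9 and 26.5, a difference of -1.04 ± 0.27 or 2.05-fold lower. The list had 4 genes higher and 6 lower and a median of -0.15, which turned to 0.039 at the upper end of the scalings.

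NFAT factors and calcineurin, the arm of T cell receptor signalling that works beside AP-1, had 4 genes higher and 4 lower with a median of -0.01. Nfatc2 read 3440 and 4950, a difference of 0.59, while a dimmer probe that was not measured on both arrays gave -1.99. Ppp3ca, a catalytic subunit of calcineurin, had a difference of 0.42. The activation genes with AP-1 and NFAT sites were higher in 5 of 6 measured cases, 0 of them at least 2-fold, with a median of 0.44 (0.27 to 0.63 over the scalings). Fasl, the death receptor ligand, read 350 and 562, a difference of 0.75 ± 0.21. Il2, the growth factor of T cells, was dim at 69.7 and 100, a difference of 0.59 ± 0.23. Fasl is also expressed by CD8 T and NK cells, although the CD4+TCR+ gate was set to leave such cells out. By their brightest probes, the markers of these cells were higher in 7 of 8 cases on the same array. Their summed signals were 17412 and 36220, of which Klra1 alone gave 8790 and 24700. Second probes of Cd8a and Nkg7, well above background on both arrays, gave -0.058 and -0.047. A second probe of Klrb1c, which counted as lower, gave 0.495 but was not measured on both arrays. The part of these cells in the values of this list was not tested.

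**Figure D4:**
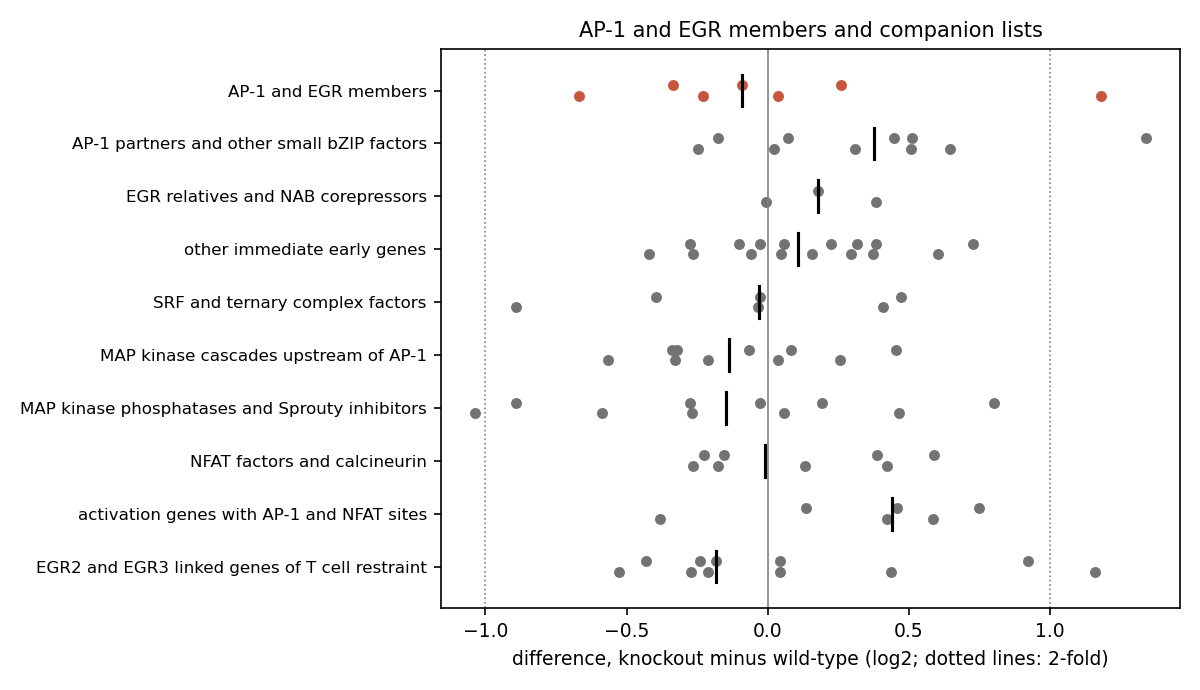
Difference (log2, knockout minus wild-type) of each gene well above background on both arrays, for the 7 measured members and for the 9 lists around them, with the list median as a black bar and dotted lines at 2-fold. Of the members only Fosl2 (1.18) lies beyond a dotted line, and of the 78 genes of the other lists 3 do.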

How the data were processed

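The deposited scanner files hold intensity values: for each spot a processed signal, with its error, from which Agilent Feature Extraction (version 11.0.1.1, per the file headers) had subtracted background within the array. No normalization between arrays is in them. The authors' deposited value table holds log2 values of a normalization that the sources used here do not state. Both arrays came from 1 slide and 1 scan per the file headers.

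Control spots and outlier spots (228 and 138 of 43020) were left out, spots of a probe were averaged, and the signal was divided by the array's 75th percentile over 39411 probes (544 and 520) before log2. A probe of several spots counted as well above background where at least 50% of its spots did. Of these probes, 27220 matched a gene through a RefSeq accession (GRCm38.p6 table), while the file headers name build mm9. A gene was represented by its brightest probe that either array measured well above background. The error of a difference combines both scanner errors. A value of at least 2-fold was the call; 1 array per genotype allowed no test. A signal well above background on 1 array only is compared with the higher of the other array's lowest such signal and the probe's own. That is no strict bound, since Junb was not flagged at 9.72 on the knockout-labelled array, whose lowest flagged signal was 8.96.

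Members, lists and genes were chosen with earlier results of these data known. Named were the members, list genes past 2-fold or else the 2 largest differences per list, and for markers the first gene and 2 largest; several are left out for length. Batf, Batf3, Srf, Nr4a1, Ier2, Atf3, Ms4a2, Spi1, Mafg, Crem, Atf2, Mkl2 and Elk3 were named after their values were seen. So were Csf1r, Nkg7, Klrb1c, Mcpt8, Elane, Pecam1, Cdh5, Pdpn, Irf4, Ier5, Rgs2, Ikzf2 and Cblb. Motifs were searched in 100 bases before each start, with sequences of 7 of the 10 genes used. Alternatives used limma 3.58.1 in R 4.3.3 (normexp offset 50); the rest ran in Python 3.11.15, tested on simulated arrays.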

Additional observations from a re-analysis of the deposited data

How the results depend on the processing

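Of 144 values under alternatives, 134 moved by less than the scanner error or 1.5 times a count. That count does not measure robustness, since many of these values could not move. For a gene with 1 probe, the alternatives on the choice of probe returned the same value. So did the background filters for the genes they kept. Centring on the median shifted all genes by one constant, smaller than any measured member's scanner error. Of the 10 values that moved, background correction moved most. With normexp and quantile normalization Fosb was -0.16 and Fosl2 0.95 on the log2 scale, leaving 0 members at least 2-fold different. With normexp scaled to the 75th percentile, chosen after seeing the data, Fos was -0.50, Fosb -1.15, Fosl2 0.89 and Jund -0.021, and the cause was not tested. Without a filter on background 2 members passed 2-fold, the second being Egr3, which neither array measured. At 1.5-fold 2 members passed and at 3-fold 0. A minimum at the median signal left no value for Fos and Fosb. Of all genes past 2-fold, 52.1% were higher on the array labelled knockout, against 73.3% centred on the median, 63.8% with quantile normalization, 65.7% with loess, 63.9% in the authors' deposited table and 17.9% with normexp scaled to the 75th percentile (62.1% with normexp and quantile normalization). No paired analysis was possible because each genotype had 1 array, and for the same reason none could be left out. Signals near background limit Fos, Fosb and the second Fosl2 probe, and give no level for Fosl1, Junb and Egr3.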
